A study of Mus musculus with 30 samples.

Results

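Levels of 8 genes of Schwann cells and their myelin, Mbp, Pmp22, Prx, Sox10, S100b, Ncmap, Mag and Cldn19, were followed through RNA sequencing libraries of mouse Achilles tendon and calcaneus (heel bone), where that tendon ends. The 8 were taken by gene symbol, and all were found, among the 55426 genes of the table, whatever their level. The study loaded muscle with light. Its 30 samples carry the genotype label Acta1,Ai32 in every group, controls included: Ai32 is a Cre-dependent allele of channelrhodopsin-2, a light-gated cation channel, and Acta1 is skeletal muscle actin. Each tissue has 5 groups of 3 samples: naive (day 0), unstimulated at day 5, stimulated at day 5, unstimulated at day 12 and stimulated at day 12. The age and sex of the animals, and whether a sample pools animals, are not given in the labels. Because the labels do not say that samples of a group came from different animals, every p-value here reflects the spread among the samples alone, and that spread could be technical.

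Schwann cells are the glia of peripheral nerves. Myelinating Schwann cells wrap an axon in many turns of membrane. The turns are held together by proteins of compact myelin, and the uncompacted edges are built by a separate set of junction and adhesion proteins. The transcription factor Sox10 is required through the whole lineage, and Egr2 turns on the myelin programme. Axons run in the tissue while the cell bodies of the neurons lie in ganglia or the spinal cord, so a piece of nerve brings Schwann cell mRNA and little neuronal mRNA. In bulk tissue, fewer cells of a type and less RNA per cell cannot be told apart.

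Promoter sequences are shown for Prx, Ncmap and Mag, because these genes rose and fell together over the libraries and hold matches to cores of the sites bound by SOX or EGR factors. RefSeq promoters (build GRCm38.p6, 250 bases before to 50 after a transcript start) were at hand for 6 of the 8 genes, 13 promoters in all, and none for Mbp or Sox10. Each line gives the 250 bases before the start, 5′ to 3′ on the gene's strand, with the matched letters in capitals:
Prx, chr7:27499074-27499323, plus strand: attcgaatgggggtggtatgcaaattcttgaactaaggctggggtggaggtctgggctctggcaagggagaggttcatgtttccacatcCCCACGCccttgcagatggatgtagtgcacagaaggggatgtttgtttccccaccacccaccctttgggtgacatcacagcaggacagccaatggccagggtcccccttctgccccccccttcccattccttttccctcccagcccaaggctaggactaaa
Ncmap, distal start, chr4:135398228-135398477, minus strand: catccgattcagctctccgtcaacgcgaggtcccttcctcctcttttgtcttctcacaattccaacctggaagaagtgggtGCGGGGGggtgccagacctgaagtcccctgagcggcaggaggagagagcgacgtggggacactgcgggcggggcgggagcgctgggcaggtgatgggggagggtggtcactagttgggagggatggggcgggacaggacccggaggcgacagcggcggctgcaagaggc
Ncmap, internal start, chr4:135385673-135385922, minus strand: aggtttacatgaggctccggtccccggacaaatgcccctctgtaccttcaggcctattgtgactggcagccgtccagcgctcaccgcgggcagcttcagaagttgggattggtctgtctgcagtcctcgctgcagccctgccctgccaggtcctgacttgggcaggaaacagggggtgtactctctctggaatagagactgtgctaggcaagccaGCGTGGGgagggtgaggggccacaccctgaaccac
Mag, chr7:30914923-30915172, minus strand: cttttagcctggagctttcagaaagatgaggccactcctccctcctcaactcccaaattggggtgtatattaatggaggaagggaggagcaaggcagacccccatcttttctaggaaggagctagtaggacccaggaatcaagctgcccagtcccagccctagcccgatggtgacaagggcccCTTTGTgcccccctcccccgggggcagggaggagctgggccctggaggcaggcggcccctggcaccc
The SOX cores searched were ACAAAG and ACAATG, and the EGR cores GCGTGGG and GCGGGGG, each on both strands over the whole window of 250 and 50 bases. Prx holds GCGTGGG on the reverse strand, the distal Ncmap start holds GCGGGGG (2 matches, of which the other lies after the start and is not shown), the internal Ncmap start holds GCGTGGG, and Mag holds ACAAAG on the reverse strand, which another of its 3 promoters shares because the windows overlap. A SOX core stood in 2 of the 13 promoters, against 28.6% of 32851 promoters of the table. An EGR core stood in 3 of 13, against 14.7%. No match was found in the promoters of Pmp22, S100b or Cldn19, which says only that these letters are not in these windows.

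The 8 genes lie on different chromosomes or far apart, on the mouse build GRCm38: Mbp (ENSMUSG00000041607) at chr18:82475146-82585637, plus strand; Pmp22 (ENSMUSG00000018217) at chr11:63128982-63159547, plus strand; Prx (ENSMUSG00000053198) at chr7:27499324-27520214, plus strand; Sox10 (ENSMUSG00000033006) at chr15:79154908-79165240, minus strand; S100b (ENSMUSG00000033208) at chr10:76253853-76261159, plus strand; Ncmap (ENSMUSG00000043924) at chr4:135369576-135398227, minus strand; Mag (ENSMUSG00000036634) at chr7:30899176-30914873, minus strand; and Cldn19 (ENSMUSG00000066058) at chr4:119255414-119262438, plus strand. Each gene is protein-coding, and values are whole-gene counts over annotated exons. An antisense gene on the opposite strand overlaps exons of Prx (Gm15541) and of Cldn19 (Gm12927), and the strand setting of the counting is not stated. If strand was ignored in the counting, reads of each pair where their exons overlap could not be told apart.

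Levels are given in CPM, the gene's count relative to the library total, scaled by TMM (trimmed mean of M values) within a tissue. The libraries held 24.5 to 44.6 M gene counts in tendon, with a median of 30.3 M, and 19.3 to 35 M in bone, with a median of 23.4 M. In the unstimulated bone group of day 5, samples 1 and 2 differed far less than any other pair of a group (mean chi-square per gene 6.28, against 18.8 to 208 in 29 other pairs), and were summed and counted as 1 library, written 1+2. That left 29 libraries. The lowest count of any of the 8 genes in any library was 5.

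Mbp encodes myelin basic protein, which zips the inner faces of the myelin membrane together. In tendon its level was 9.05, 156 and 5.64 in the naive libraries, 9.2, 13.8 and 431 in the 5-day unstimulated libraries, 8.68, 9.03 and 7.28 in the 5-day stimulated libraries, 11.6, 30.7 and 159 in the 12-day unstimulated libraries, and 99.7, 7.61 and 95.7 in the 12-day stimulated libraries, in CPM and in the order of the library numbers. The 3 stimulated libraries of day 5 lay close together, while in each of the 4 other groups libraries differed many times over. Unstimulated library 3 of day 5 stood 46.9-fold above the lowest of its own group. In bone Mbp was 244, 57.4 and 37.1 in the naive libraries, 218 and 421 in the 5-day unstimulated libraries, 79.5, 489 and 39.2 in the 5-day stimulated libraries, 95.8, 190 and 373 in the 12-day unstimulated libraries, and 126, 43.9 and 67.1 in the 12-day stimulated libraries, the first 5-day unstimulated value being that of the summed library. The bone groups overlapped one another, apart from the unstimulated libraries of day 5, which lay above the stimulated libraries of day 12.

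Pmp22 encodes peripheral myelin protein 22, a membrane protein of compact myelin that fibroblasts and other cells also make. Its level in tendon was 75.8, 269 and 81.9 in the naive libraries, 41.3, 53 and 541 in the 5-day unstimulated libraries, 44.8, 34.2 and 52.1 in the 5-day stimulated libraries, 34.4, 49.3 and 184 in the 12-day unstimulated libraries, and 125, 34.8 and 116 in the 12-day stimulated libraries, in CPM. The same libraries were high as for Mbp, but Pmp22 never fell below 34.2 CPM, so that its whole range in tendon was 15.8-fold against 76.5-fold for Mbp. In bone it ran from 91.5 CPM in naive library 3 to 894 CPM in stimulated library 2 of day 5 (median 332).

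Prx encodes periaxin, which links the outer Schwann cell membrane to the cytoskeleton. In tendon it was 6.65, 83.4 and 4.51 in the naive libraries, 7.07, 10.5 and 209 in the 5-day unstimulated libraries, 4.63, 4.27 and 4.26 in the 5-day stimulated libraries, 5.45, 16.4 and 77 in the 12-day unstimulated libraries, and 51.7, 5.11 and 46.1 in the 12-day stimulated libraries, in CPM. The 5 highest libraries had 46.1 CPM or more, and the next had 16.4 CPM. Prx in bone had its lowest level, 8.68 CPM, in naive library 3 and its highest, 279 CPM, in stimulated library 2 of day 5, a 32.2-fold range with a median of 42.8 CPM.

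The genes of the uncompacted parts followed. Mag, the myelin-associated glycoprotein of the membrane that faces the axon, ran in tendon from 0.151 CPM in stimulated library 2 of day 5 to 11 CPM in unstimulated library 3 of day 5, with 5.47 CPM in naive library 2. Cldn19, a claudin of the tight junctions of Schwann cell myelin, ran in tendon from 0.347 CPM to 30.3 CPM and in bone from 0.502 CPM in naive library 3 to 50.5 CPM in stimulated library 2 of day 5. Ncmap encodes a membrane protein of noncompact myelin, and it had the widest range of the 8 genes in tendon, 235-fold. It was 0.888, 13.7 and 0.446 in the naive libraries, 0.981, 1.14 and 29.1 in the 5-day unstimulated libraries, 0.57, 0.485 and 0.124 in the 5-day stimulated libraries, 0.505, 2.2 and 8.67 in the 12-day unstimulated libraries, and 6.71, 0.29 and 6.38 in the 12-day stimulated libraries, in CPM. The lowest of these values rests on 5 counts, so that this fold carries a large counting error.

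Sox10, the transcription factor, was the lineage gene of the set. In tendon it was 1.17, 6.31 and 0.551 in the naive libraries, 0.981, 1.66 and 14.6 in the 5-day unstimulated libraries, 0.972, 0.818 and 0.495 in the 5-day stimulated libraries, 1.05, 2.63 and 6.79 in the 12-day unstimulated libraries, and 5.86, 0.761 and 5.15 in the 12-day stimulated libraries, in CPM. In bone it was 13.7, 2.95 and 1.61 in the naive libraries, 13.9 and 18.5 in the 5-day unstimulated libraries, 10, 32.9 and 3.17 in the 5-day stimulated libraries, 7.86, 10.6 and 20.6 in the 12-day unstimulated libraries, and 7.24, 7.22 and 6.06 in the 12-day stimulated libraries, in CPM. Its order over the libraries was nearly that of the myelin genes, with the highest tendon level in unstimulated library 3 of day 5 and the highest bone level in stimulated library 2 of day 5.

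S100b encodes a calcium-binding protein used as a Schwann cell marker, and cartilage and fat cells make it too. In tendon it was 1.04, 3.98 and 1.5 in the naive libraries, 1.06, 1.69 and 7.96 in the 5-day unstimulated libraries, 1.11, 0.575 and 1.04 in the 5-day stimulated libraries, 0.902, 1.1 and 2.16 in the 12-day unstimulated libraries, and 2.36, 1.2 and 2.09 in the 12-day stimulated libraries, in CPM. In bone it was 17.9, 17.9 and 22.6 in the naive libraries, 23.8 and 22.7 in the 5-day unstimulated libraries, 20.9, 34.6 and 20.1 in the 5-day stimulated libraries, 29, 35 and 31.6 in the 12-day unstimulated libraries, and 24.9, 20.4 and 12.7 in the 12-day stimulated libraries, in CPM. The tendon libraries that were high in Mbp were the highest in S100b too, but the bone libraries spread over only 2.76-fold, and stimulated library 2 of day 5, with the most Mbp, had 34.6 CPM where unstimulated library 2 of day 12 had 35 CPM.

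**Figure D1:**
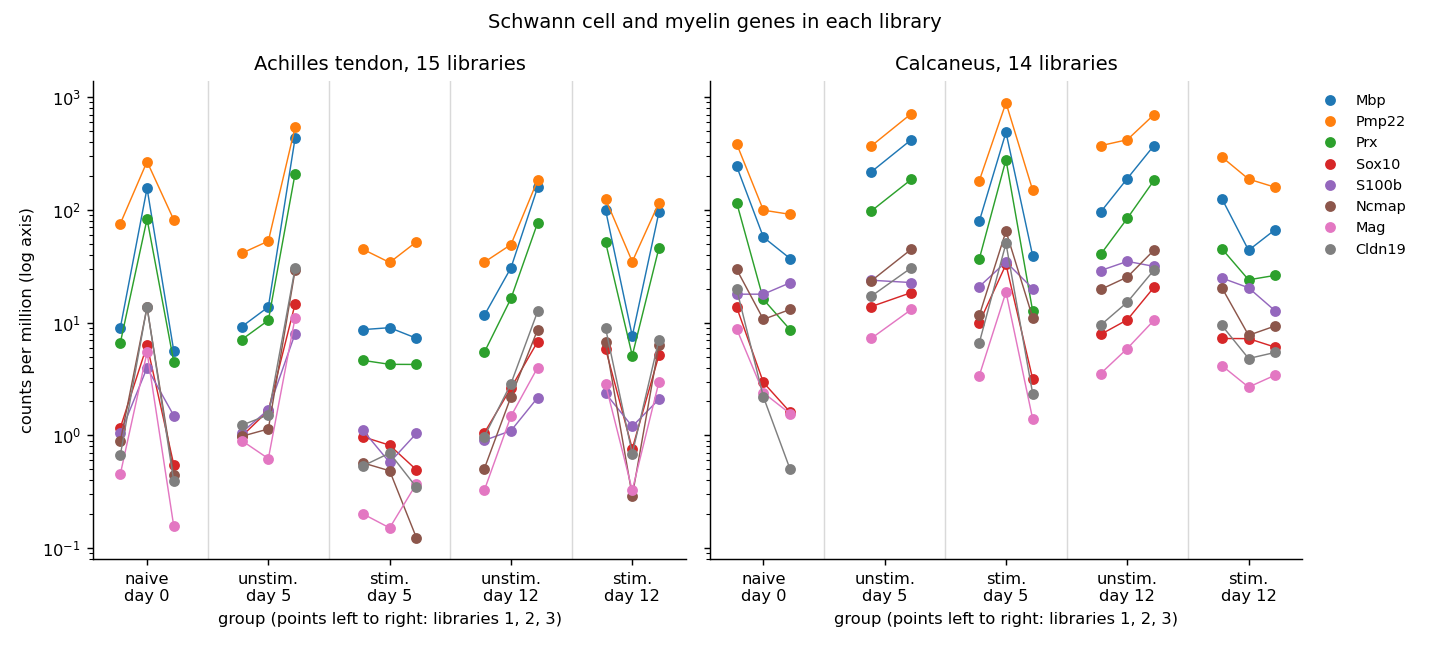
CPM on a log axis of the 8 genes (colours) in each library, by group, for tendon (left) and calcaneus (right); lines join the libraries of a group to guide the eye and mark no order. In tendon, Mbp runs from 5.64 to 431 CPM and the other genes move with it; in bone, S100b stays between 12.7 and 35 CPM.

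The mean log2 CPM of the 8 genes (with a prior count of 2) orders the libraries. In tendon it was 1.39, 4.56 and 0.84 (naive), 1.5, 1.86 and 5.71 (5-day unstimulated), 0.98, 0.76 and 0.63 (5-day stimulated), 1.14, 2.45 and 4.23 (12-day unstimulated) and 3.83, 0.9 and 3.7 (12-day stimulated). The 5 highest tendon libraries lay between 3.7 and 5.71: unstimulated 3 of day 5, naive 2, unstimulated 3 of day 12, and stimulated 1 and 3 of day 12. The other 10 lay between 0.63 and 2.45, and all 3 stimulated libraries of day 5 were among the lowest 5. In bone the mean was 5.46, 3.52 and 2.97 (naive), 5.36 and 6.08 (5-day unstimulated), 4.35, 6.62 and 3.45 (5-day stimulated), 4.72, 5.3 and 6.08 (12-day unstimulated) and 4.74, 3.94 and 3.99 (12-day stimulated). Bone libraries ran without such a gap from 2.97 to 6.62. The 5 highest libraries of each tissue were the same with DESeq2's size factors and with plain CPM.

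These 8 genes were among the most variable of all genes tested in tendon. The log2 range of Ncmap over the 15 tendon libraries was 7.29, and 0.0643% of 17108 genes ranged wider. It was 6.24 for Mbp (0.187% wider), 6.21 for Cldn19 (0.199%) and 3.65 for S100b (2.45%), where the median gene ranged over 0.91. The share of a gene's variance in log2 CPM that lay within groups was 69.3% (S100b) to 80.4% (Mbp) in tendon, where the median gene had 53%. In bone it was 46.8% for S100b and 56.3% to 74.5% for the other 7, where the median gene had 53.9%. Apart from S100b in bone, most of the spread of these genes was between libraries of the same group.

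As a description over libraries that share their preparation, each gene's log2 CPM was set against the mean of the other 7. Pearson's r over the 15 tendon libraries was 0.997 for Prx, 0.98 for Mbp, Sox10, Ncmap and Cldn19, 0.96 for Mag, 0.91 for Pmp22 and 0.89 for S100b. Over the 14 bone libraries it was 0.92 to 0.98 for 7 genes and 0.55 for S100b.

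The genes with the pattern most like the mean of the 8 were looked for among 12131 tendon and 13534 bone genes with a mean of at least 1 CPM. That mean was taken over the same libraries, so a gene could enter through a few high ones. In tendon the 10 nearest were Pllp (r = 0.989), Dusp15, Ugt8a, Mal, Aatk, Sept3, Ddn, Cntf, Cadm4 and Kif1a (r = 0.973). In bone they were Kif1a (r = 0.986), Cntf, Mal, Sema3b, Ugt8a, Sept3, Ddn, Prss12, Sptbn5 and Dhh (r = 0.968). Of these, 6 stood in both lists: Ugt8a, Mal, Sept3, Ddn, Cntf and Kif1a. Pllp and Mal are proteolipids of myelin membrane, Ugt8a makes galactolipids of myelin, and Cntf is a nerve growth-supporting cytokine made by Schwann cells. Kif1a, Sept3 and Ddn, near in both tissues, belong to none of the marker lists read below. The cells that made them were not tested. An r of at least 0.9 was reached by 41 genes in tendon and 53 in bone, and 29 of them were shared, 70.7% of the tendon list and 54.7% of the bone list. No gene reached -0.9 in either tissue.

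Other lists of genes were read beside the 8. A gene could be placed by pattern if it had a mean of at least 1 CPM and was not sex-linked. Of 11 other myelin genes, 7 could be placed in tendon and all 7 had an r of at least 0.9, while in bone 4 of 8 did. That mean was taken over the same libraries, so a gene could be placed through a few high ones, which favours a high r. Pmp2 and Pllp had tendon medians of 0.415 and 0.898 CPM, under that limit, and maxima of 13.9 and 21.6 CPM. Summed over the 11 genes, the level ran from 28.6 to 357 CPM in tendon and from 61.5 to 511 CPM in bone. Of 4 enzymes of myelin galactolipids, Ugt8a and Fa2h followed the 8 genes in both tissues. Of the Schwann cell factors and receptors, Dhh (desert hedgehog, a signal from Schwann cells to the nerve sheath) and Cdh19 reached 0.9 in tendon and Dhh alone in bone. Egr2 ran from 0.866 to 8.39 CPM in tendon and was highest in naive library 3, where Mbp was lowest. Genes of non-myelinating and repair Schwann cells had no member at 0.9, but only 3 of the 10 in tendon and 7 in bone could be placed. The sum of all 10 stayed between 39.6 and 94.4 CPM in tendon, but most of it was Ncam1 (28.6 to 79.1 CPM), an adhesion molecule that muscle also makes. Among the others, the r with the mean of the 8 in tendon was 0.8 for L1cam (1.06 to 5.36 CPM), 0.56 for Ngfr and 0.42 for Scn7a, and -0.55 for Gdnf.

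The 11 neuron and axon genes differed in level. Nefl, a neurofilament, had at most 4 counts in any tendon library and 7 in any bone library, Snap25 of synapses at most 4 and 5, Calca at most 4 and 11, and Scn10a, a sodium channel of sensory neurons, at most 4 and 1. Other genes of that list, which further cell types can also make, were well above 0: Uchl1 was 24.8 to 61.9 CPM in tendon and 13.6 to 87.2 CPM in bone, Prph 2.03 to 7.82 and 0.803 to 6.35 CPM, and Stmn2 1.24 to 3.31 and 3.7 to 10.6 CPM. The list summed to 32.7 to 72.2 CPM in tendon and 27 to 107 CPM in bone. Only 4 of the 11 in tendon and 5 in bone could be placed by pattern, and none of those reached an r of 0.9. By a second r, with the mean log2 CPM of the 8 and over all 11 genes, the nearest was Nefm in bone (r = 0.88). Melanocytes also use Sox10, and their 6 genes were uneven too. Tyr, their pigment enzyme, had at most 1 count in any library and Tyrp1 at most 4 in tendon and 15 in bone. Pmel reached 11 counts in tendon and 62 in bone, Dct reached 24 in tendon, in unstimulated library 3 of day 5, and 6 in bone, and Mitf, which many cell types use, was 7.2 to 18.4 CPM. No gene that could be placed from the lists for cartilage, fat, endothelium, muscle, tendon fibroblasts, bone-forming cells and marrow reached an r of 0.9 in either tissue. In tendon only 2 of 9 marrow genes and 4 of 5 genes of bone-forming cells could be placed. For tendon fibroblasts it was 5 of 6 in each tissue. Yet in unstimulated tendon library 3 of day 5 some single markers of other cells stood high too. Col2a1 of cartilage was at its highest tendon level, 220 CPM (median 17.4), and Adipoq of fat cells at 83.7 CPM (median 25). Summed chondrocyte genes were 856 CPM in that library, below the 1370 and 1200 CPM of naive libraries 1 and 3. Summed fat cell genes were 1280 CPM, against 1160 and 1170 CPM in stimulated libraries 1 and 3 of day 5. The part of those cells in the levels of that library was not tested. Muscle genes were abundant in every tendon library, with Acta1 at 26700 CPM or more, and the defining tendon gene Tnmd at 15.1 to 154 CPM. In the summed bone library, keratinocyte genes summed to 189 CPM against 3.68 to 10 CPM in the other bone libraries.

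**Figure D2:**
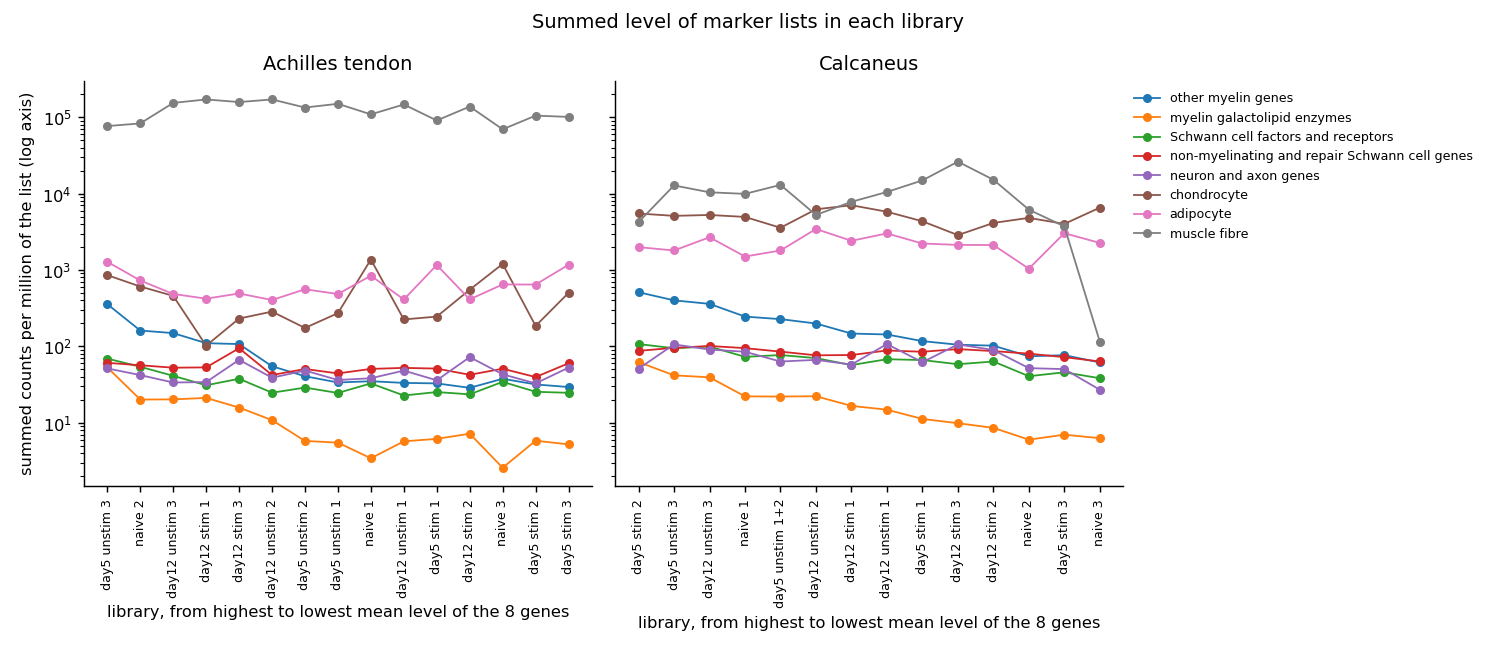
Summed CPM (log axis) of 8 marker lists in each library, ordered from the highest to the lowest mean of the 8 genes, for tendon (left) and calcaneus (right). Other myelin genes span 357 to 28.6 CPM in tendon, high at the left, while non-myelinating Schwann cell genes, most of whose sum is Ncam1, stay within 39.6 to 94.4 CPM.

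Levels per length set the genes roughly beside one another. The length used counts every annotated exon once, 8469 bases over 16 transcripts for Mbp, and can differ from that of the mRNA present. Ratios between genes depend on it, but changes of a ratio from library to library do not. Divided by the length of annotated exons in kilobases, the median over tendon libraries was 22.5 CPM per kilobase for Pmp22, 1.37 for Mbp, 1.27 for Prx and 0.153 for Mag, and over bone libraries 141, 13.1, 7.67 and 0.944. In the 5 libraries with the most Prx, a choice made after the values were seen, the ratio of Mbp to Prx per kilobase was 1.23 to 1.37 in tendon and 1.15 to 1.48 in bone. Mbp and Prx thus kept nearly the same proportion across these libraries of both tissues, as did Cldn19, at 0.19 to 0.225 of Prx in tendon and 0.209 to 0.236 in bone. Ncmap differed, at 0.282 to 0.413 of Prx in tendon and 0.582 to 0.639 in bone, and so did S100b, at 0.106 to 0.18 against 0.457 to 0.909. In the remaining libraries Pmp22 reached 43.1 times Prx in tendon and S100b 9.74 times Prx in bone, where in the 5 high libraries they stayed at or under 7.65 and 0.909 times.

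**Figure D3:**
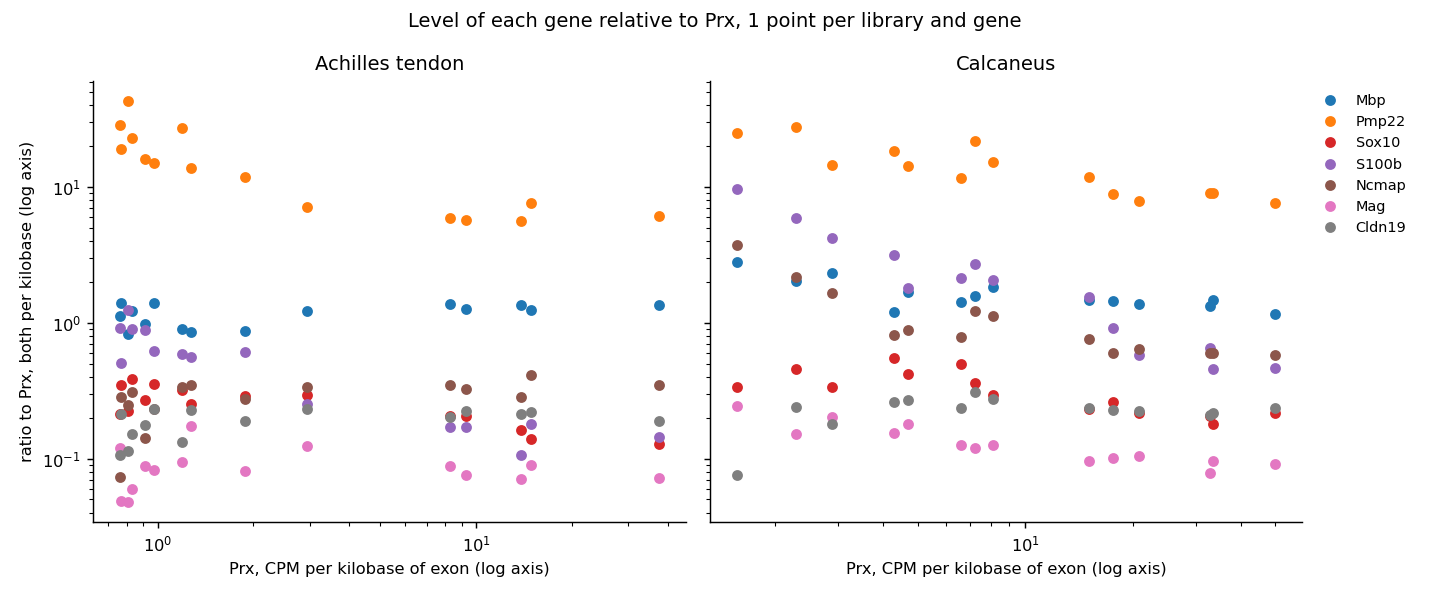
Ratio of each gene to Prx, both as CPM per kilobase of exon, against the level of Prx, with all axes logarithmic and 1 point per library and gene. The ratio of Mbp stays between 0.824 and 2.81 over both tissues, while those of Pmp22 in tendon (up to 43.1) and S100b in bone (up to 9.74) are highest where Prx is low.

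Stimulated was compared with unstimulated first, to ask whether loading went with a change in these genes. In tendon at day 5 all 8 log2 fold changes were below 0, from -1.99 (S100b) to -4.79 (Ncmap), with a median of -4.1 where the median gene had 0. Mbp was 8.33 ± 0.927 CPM (SD, n = 3) stimulated and 151 ± 242 CPM (SD, n = 3) unstimulated, a log2 fold change of -4.19 ± 1.74 (SE). The test did not call it, with an adjusted p of 0.555 by edgeR's quasi-likelihood test with Benjamini-Hochberg adjustment. Of the 8 genes 0 were called, and 0.0585% of 17108 genes were; adjusted p-values ran from 0.485 to 0.577. Before adjustment all 8 had an edgeR p under 0.05, as 8.28% of all genes did, and DESeq2 called 0 of them. For 6 of the 8, not Pmp22 or S100b, every stimulated library was below every unstimulated library, as were 5.78% of all genes. The 8 genes rose and fell together over the tendon libraries, so these counts do not stand for 8 separate observations. Markers of some other cells were lower in the same comparison, but not of all. Summed fat cell genes were 644 to 1170 CPM stimulated and 484 to 1280 CPM unstimulated. Tendon fibroblast genes were 759 to 1700 and 551 to 1690 CPM. The 7 chondrocyte genes had a median of -2.24, with 4 under an unadjusted edgeR p of 0.05, and the 5 osteoblast genes one of -1.66, with 4 under it; 0 of either were called. Summed, chondrocyte genes were 185 to 502 CPM stimulated and 174 to 856 CPM unstimulated, and osteoblast genes 16.2 to 26.5 and 21.8 to 64.5 CPM. The part of any of these cells in the difference was not tested. Without unstimulated library 3 the median of the 8 became -0.91 and Mbp -0.47, with 0 called. The largest change left was that of Mag (-1.59), at 0.9 and 0.622 CPM in unstimulated libraries 1 and 2 against 0.151 to 0.371 CPM stimulated. These levels rest on 22 and 18 counts against 5 to 15. For Sox10 the lower of the 2 unstimulated values, 0.981 CPM, was next to the highest stimulated one, 0.972 CPM. Pmp22 and S100b overlapped.

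In tendon at day 12 no such difference stood. The 8 log2 fold changes lay between 0 (Cldn19) and 0.43 (S100b), with standard errors of 0.72 to 1.52. Each group held libraries from both ends of the range: Mbp was 11.6, 30.7 and 159 CPM unstimulated and 99.7, 7.61 and 95.7 CPM stimulated. None of the 8 was called by edgeR and none had an unadjusted p under 0.05, where 0.345% of genes were called and 11.2% had such a p. The median of the 8 went from 0.06 to 1.37 without unstimulated library 3 and to -0.39 without unstimulated library 1.

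The change of the stimulation effect from day 5 to day 12 in tendon was 2.32 (Pmp22) to 5 (Ncmap) on the log2 scale. It passed for 0 of the 8 genes and for 0% of all genes, with adjusted p-values of 1 by edgeR. Before adjustment 1 of the 8, S100b, was under 0.05, and 4.09% of all genes were; DESeq2 called 12 of all genes and 0 of the 8. Without unstimulated library 3 of day 5 the median of the 8 fell from 4.16 to 1.04. A difference between the days was therefore not shown.

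In bone at day 5, the log2 fold changes ran from -0.66 (Mbp) to 0.12 (S100b), below 0 for 7 of the 8 genes, with standard errors of 0.27 to 1.28. Both groups spread widely: Mbp was 218 and 421 CPM unstimulated, and 79.5, 489 and 39.2 CPM stimulated. No gene was called by edgeR, neither of the 8 nor of all 18851 (0%), and 0 of the 8 had an unadjusted p under 0.05, where 8.07% of all genes did. DESeq2 called 49 of all genes and 0 of the 8. Without stimulated library 2 the median of the 8 was -1.89, and without unstimulated library 3 it was 0.17, so that its direction rests on single libraries.

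In bone at day 12 all 8 log2 fold changes were below 0, from -0.72 (S100b) to -1.69 (Prx), with a median of -1.24 where the median gene had -0.01. S100b was 24.9, 20.4 and 12.7 CPM stimulated and 29, 35 and 31.6 CPM unstimulated, a log2 fold change of -0.72 ± 0.24 (SE). Its edgeR p was 0.0117 before and 0.235 after adjustment. The other 7 had adjusted p-values of 0.473 to 0.667, so that 0 of the 8 were called, as 0.0371% of all genes were, and 1 of the 8 had an unadjusted p under 0.05, as 14.6% of all genes did. The groups did not overlap for Pmp22, Sox10, S100b and Cldn19, and 10% of all genes were likewise lower in every stimulated library. Genes of fat cells, which also make S100b, had sums of 2120 to 2410 CPM with stimulation and of 2680 to 3440 CPM without. Those of chondrocytes, which make it too, had sums of 2860 to 7040 CPM with and 5250 to 6230 CPM without. The part of either cell type in the S100b difference was not tested. The change of the stimulation effect from day 5 to day 12 in bone was -1.31 (Prx) to -0.6 (Mag), with 0 of the 8 called by edgeR and 0% of all genes. Before adjustment 1 of the 8, S100b, was under 0.05, and 10.7% of all genes were; DESeq2 called 60 of all genes and 0 of the 8.

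**Figure D4:**
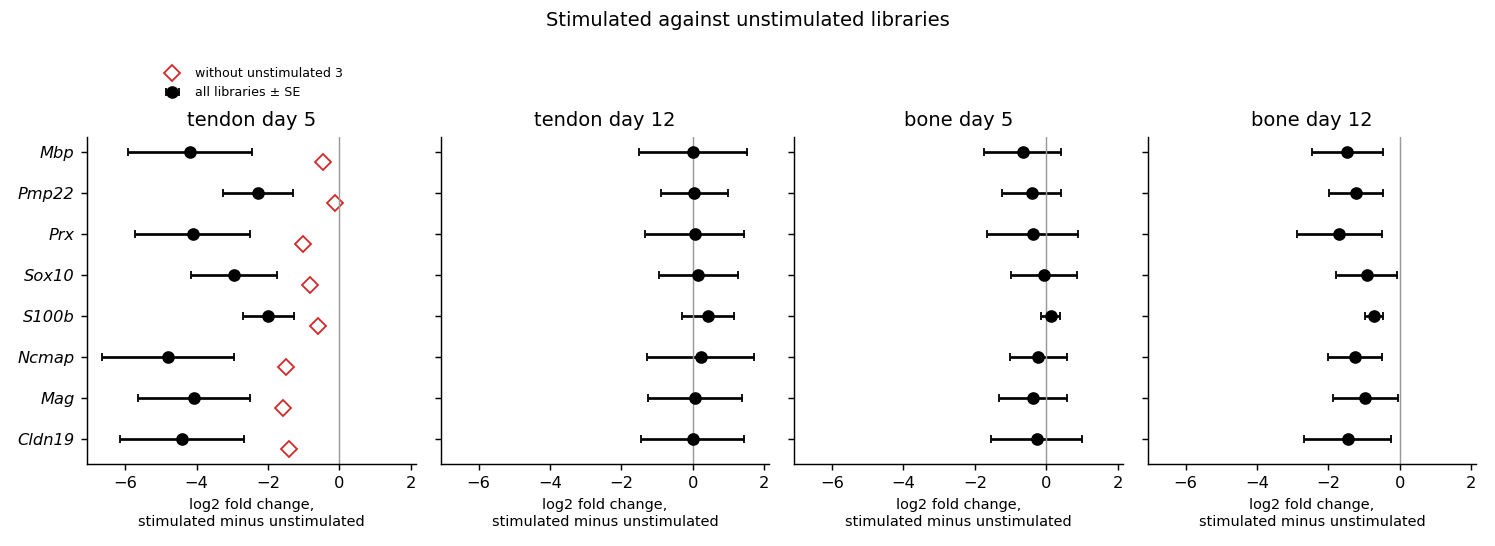
Log2 fold change of each gene, stimulated minus unstimulated, with its standard error (bars), in each tissue and at each day; open diamonds give the tendon day 5 values without unstimulated library 3. In tendon at day 5 the values run from -4.79 (Ncmap) to -1.99 (S100b) with all libraries and from -1.59 (Mag) to -0.11 (Pmp22) without that library; at day 12 they sit near 0.

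Each later group was then compared with the naive samples, which these comparisons share. In tendon at day 5 the 8 unstimulated genes stood 0.58 (Pmp22) to 1.41 (Mbp) above naive on the log2 scale and the 8 stimulated genes 1.25 (S100b) to 3.71 (Ncmap) below it. At day 12 tendon genes lay between -0.67 and 0.39 unstimulated and between -0.63 and 0.55 stimulated. In none of these was any of the 8 called by edgeR or under an unadjusted p of 0.05, where 0.0351% (day 5, unstimulated), 2.29% (day 5, stimulated), 18.8% (day 12, unstimulated) and 24.4% (day 12, stimulated) of genes were called, and 10.9%, 19.6%, 35.8% and 39.2% had such an unadjusted p. These values depended on naive library 2. Without it the medians of the 8 went from 1.1 to 3.75, -2.81 to -0.34, 0.01 to 2.53 and 0.06 to 2.65 in the same order. Only the day 5 stimulated median moved toward 0, and the others moved away from it. Without unstimulated library 3 of its day, the unstimulated medians became -1.71 at day 5 and -1.41 at day 12.

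In bone the 8 genes stood above naive in 3 of the 4 comparisons, by medians of 1.44 (day 5, unstimulated), 0.98 (day 5, stimulated) and 1.02 (day 12, unstimulated), and by -0.29 at day 12 with stimulation. None was called by edgeR, where 0.435%, 0.228%, 21.8% and 4.54% of genes were called in that order. S100b came nearest, at 31.9 ± 2.98 CPM (SD, n = 3) in the 12-day unstimulated group against 19.5 ± 2.74 CPM (SD, n = 3) in naive bone, a log2 fold change of 0.71 ± 0.24 (SE) with an adjusted p of 0.0552 by edgeR. Its 3 unstimulated libraries were all above the 3 naive ones, as were those of 19.5% of all genes. It was the only 1 of the 8 with an unadjusted p under 0.05 (0.0127 by edgeR), where 35.3% of all genes had one. With DESeq2, which called 4699 of 18851 genes there, its adjusted p was 0.023. Adipoq, Plin1 and the 4 other fat cell genes all had log2 fold changes above 0 in the same comparison, and 4 of the 6 were called. Summed chondrocyte genes were 5250 to 6230 CPM in the 12-day unstimulated group and 4810 to 6550 CPM in naive bone. The part of fat cells or chondrocytes in the S100b value was not tested. Without naive library 1, the naive bone library with the most Mbp, the medians became 2.63, 2.1, 2.3 and 0.97 in the order above, and without stimulated library 2 the day 5 stimulated median was -0.71.

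Genes of the related lists were called in some comparisons with naive, all by edgeR. In tendon, 1 of 9 Schwann cell factors and receptors was called lower at day 5 with stimulation, and at day 12 without and with it. That gene was Egr2, with log2 fold changes of -2.19 (adjusted p = 0.00975), -1.57 (adjusted p = 0.0119) and -1.85 (adjusted p = 0.00332) from 6.84 ± 2.16 CPM (SD, n = 3) in naive tendon. Of 6 non-myelinating and repair genes, 1 was called lower at day 12: Gap43, a growth-associated protein of axons and repair Schwann cells, at -1.2 without stimulation (adjusted p = 0.0396) and -2.02 with it (adjusted p = 0.00564), from a low 1.21 CPM. Of the 4 enzymes listed with myelin galactolipids, 1 was called higher at day 12: Aspa, which splits N-acetylaspartate, at 1.23 without (adjusted p = 0.0108) and 1.6 with stimulation (adjusted p = 0.0019). Of 6 neuron and axon genes 0 were called in the tendon comparisons with naive, and at most 1 had an unadjusted p under 0.05. In the same comparisons at day 12, 6 of 7 muscle fibre genes were called higher without and with stimulation, and 6 and 2 of 6 tendon fibroblast genes lower. Their part in these values was not tested.

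In unstimulated bone at day 12, where 21.8% of all genes were called, the calls went both ways. Of 9 non-myelinating and repair genes, Scn7a, a channel of non-myelinating Schwann cells, rose by 1.61 (adjusted p = 0.0061 by edgeR) and Ngfr, a neurotrophin receptor, by 1.09 (adjusted p = 0.0307), while Gfap, an intermediate filament of glia, fell by 1.89 (adjusted p = 0.0154). Of 7 neuron and axon genes, Stmn2 rose by 1.28 (adjusted p = 0.00217) and Nefh, a neurofilament, fell by 1.5 (adjusted p = 0.00382). Lgi4, a secreted Schwann cell protein, was the 1 called of 10 factors and receptors (1.12, adjusted p = 0.0282), and Aspa the 1 called of the 4 enzymes (1.02, adjusted p = 0.00271). With stimulation at day 12 Scn7a alone of these 4 lists was called, at 1.45 (adjusted p = 0.0304), and at day 5 none was. In the unstimulated comparison, 4 of 6 tendon fibroblast genes were called higher too, and their part was not tested. The 11 other myelin genes had 0 called in every comparison with naive. Of the 53 bone genes with an r of at least 0.9, 4 were called in unstimulated bone at day 12 and 0 in any other comparison. Of the 41 tendon genes 0 were called in any. Both sets were picked for following Mbp and the other genes of the set over the same libraries, and so share their spread within groups. Few calls among them are therefore not a separate result, and their share is not set against that of all genes.

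Naive tendon was compared with naive bone, with libraries of both tissues scaled together. Of the 8 genes, S100b was called: it was 2.75 ± 2 CPM (SD, n = 3) in tendon and 15.2 ± 1.9 CPM (SD, n = 3) in bone, a log2 fold change of -2.48 ± 0.53 (SE), tendon minus bone, with an adjusted p of 0.000281 by edgeR. The tissues did not overlap, and 38.5% of all genes were likewise lower in every tendon library. Chondrocyte genes, which mark other cells that make S100b, were lower in tendon for 5 of 7. Their part in the difference was not tested. The other 7 lay between -1.16 (Ncmap) and 0.25 (Pmp22) with standard errors of 0.89 to 1.35 and were not called, where 68.4% of 19845 genes were. Naive tendon library 2 and naive bone library 1 carried the myelin genes, and the direction turned on them: the median of the 8, -0.36, was -3.11 without the former and 0.94 without the latter. Without naive tendon library 2, Ncmap was called as well, at -4.03 with an adjusted p of 0.0235.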

How the data were processed

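Poly-A RNA sequencing libraries were made from 15 tendon and 15 bone samples, per the labels' protocols. Per the submitters' processing notes, the tools were cutadapt 2.3, FastQC 0.11.8, STAR 2.7.8a, RSEM 1.3.3 and MultiQC 1.7 with the build GRCm38; their order, the gene annotation and the strand setting are not stated. What the authors deposited is a table of expected counts, in which RSEM divides reads of similar genes by an estimate; 0 of the deposited values were not whole, so rounding changed none.

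Counts were tested with edgeR 4.0.16 (R 4.3.3): TMM, filterByExpr (minimum count 10, minimum total 15), a robust quasi-likelihood fit of each tissue's libraries (all libraries for the naive tissues), and Benjamini-Hochberg adjustment over all genes at 0.05. Standard errors of log2 fold changes were taken as the estimate over the square root of F. The 15 comparisons were 4 of stimulated with unstimulated, 8 with naive, 1 of naive tissues and 2 of the change between days. The code was tested on simulated data. Coordinates and exon lengths come from GENCODE M21 (GRCm38), which matched 99.5% of gene IDs by ID; the septin symbol was read from it because the table holds it as a date.

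The 8 genes, the other gene lists and the tests were chosen with earlier results of these data known. All 8 genes are named in each comparison described; each list may give up to 4 genes, those of smallest adjusted p, and in each tissue the 10 genes nearest in pattern to the 8, leaving out predicted and sex-linked genes. A gene of the lists is not reported here; it stayed in the fits over all genes. Genes named for their levels as markers of a cell type were chosen after their values were seen. Alternatives were DESeq2 1.42.0, its size factors, no filter on low counts, a replicate block, a fit of the compared libraries alone, the near-identical pair kept apart and leaving out each library.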

Additional observations from a re-analysis of the deposited data

How the results depend on the processing

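In the 14 comparisons within a tissue, 0 of the 8 genes were called under DESeq2's size factors, without the count filter, with the replicate number as a block and without any library of the groups compared. In unstimulated bone at day 12 against naive, 1 gene (S100b) was called with DESeq2, 1 with the near-identical bone pair kept as 2 samples and 1 with only the libraries compared, where edgeR over all bone libraries called 0. Between naive tissues, 1 to 2 genes were called when a library was left out. For stimulated against unstimulated in tendon at days 5 and 12 and in bone at days 5 and 12, DESeq2 called 134, 381, 49 and 427 of all genes where edgeR called 10, 59, 0 and 7, and edgeR with only the libraries compared called 0 in each. Some values that no test called changed sign. Cldn19 in tendon at day 12 was -0.01 with only the libraries compared. Sox10 in bone at day 5 was 0.01 with the pair kept apart. Prx and Cldn19 between naive tissues were -0.12 and -0.22 with the replicate block.

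Leaving out each library in turn gave ranges of log2 fold change, and those that crossed 0 are listed here. For stimulated against unstimulated in tendon at day 5 and in bone at day 12, no gene's range crossed 0. Genes missing from a list below kept their sign too. In tendon at day 12 they were -0.49 to 1.68 for Mbp, -0.34 to 1.14 for Pmp22, -0.45 to 1.65 for Prx, -0.28 to 1.1 for Sox10, -0.3 to 1.74 for Ncmap, -0.44 to 1.2 for Mag and -0.51 to 1.54 for Cldn19. In bone at day 5 they were -1.71 to 0.18 for Pmp22, -2.52 to 0.19 for Prx, -1.29 to 0.41 for Sox10, -0.18 to 0.26 for S100b, -1.59 to 0.34 for Ncmap, -2.06 to 0.14 for Mag and -2.4 to 0.26 for Cldn19. Between naive tissues they were -3.26 to 0.96 for Mbp, -0.6 to 1.27 for Pmp22, -2.4 to 2.03 for Prx, -2.14 to 0.91 for Sox10, -3.09 to 0.72 for Mag and -3.14 to 2.54 for Cldn19. Where this left 1 library in a group, that library was assumed to vary like the other groups. The labels do not say that a replicate number marks an animal. Deviations of samples with the same number had a median r of 0.05 in tendon and -0.06 in bone over 30 pairs each. Over 60 pairs of different number it was -0.05 and 0.01. An r over 0.1 was reached by 11 of the 30 and 12 of the 60 pairs in tendon, and by 7 and 22 in bone. Some pairing in tendon is therefore not excluded. The block called 0 of the 8 genes within tissues and 1, S100b, between naive tissues. Counts as low as 5 limit Mag and Ncmap in the lowest tendon libraries.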
